A study of Mus musculus with 6 samples.

Results

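The genes described here are the core of the beta-catenin branch of Wnt signalling together with its own feedback inhibitors, 10 genes taken by symbol from the 45706 gene rows of the deposited table: Ctnnb1 (beta-catenin), the 4 TCF/LEF transcription factor genes Tcf7, Tcf7l1, Tcf7l2 and Lef1, and the feedback genes Axin2, Nkd1, Nkd2, Rnf43 and Znrf3. The rule that names them uses symbols and no measured value. RNA was sequenced from fibroblasts grown out of collagenase- and trypsin-digested lungs of wild-type mice, which had been kept in culture for 7 days before they were detached and purified. The comparison was between 3 libraries labelled control and 3 labelled DKK1-treated, whose cells received recombinant DKK1 of the mouse (30 ng/ml) over 24 hours. The labels give no strain, sex, age, vehicle or number of animals, and do not say whether replicates came from separate animals, so p-values measure the spread between these libraries, which may be technical.

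In this pathway, Wnt ligands bind Frizzled receptors and the co-receptors LRP5 and LRP6, which stops a cytoplasmic complex built on AXIN and APC from marking beta-catenin for destruction. Beta-catenin then enters the nucleus and binds TCF/LEF factors on DNA. The secreted antagonist DKK1 (Dickkopf-1) occupies LRP5 and LRP6 and blocks this relay. Several genes switched on by the pathway act back on it: AXIN2 scaffolds the destruction complex, the naked cuticle proteins NKD1 and NKD2 bind Dishevelled, and the membrane ubiquitin ligases RNF43 and ZNRF3 remove Frizzled from the cell surface. These feedback genes are widely used as readouts of Wnt activity, and in the lung the pathway is known for its part in development, repair and fibrosis.

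Library totals ranged from 22565917 to 34727102 expected counts, and 14635 genes passed the filter on low counts, all 10 genes described here among them. Fibroblast markers were high in every library, with 8 genes summing to 10581.9 to 12086.2 CPM (expected counts scaled to a common library total) in control and 9960.3 to 11485.3 CPM in DKK1 libraries. Markers of other cells were measured as well. Those of smooth muscle, 5 genes, summed to 8970.6 to 10030.7 CPM in control and 7676.3 to 8966.4 CPM in DKK1 libraries. The summed level of 8 macrophage and other leukocyte markers was 399.8 to 807 CPM in control and 457 to 868 CPM in DKK1 libraries, and that of 9 epithelial markers 41.4 to 127 and 38.3 to 128 CPM. In both groups the replicate 3 library held the highest sums of the leukocyte, epithelial, endothelial and mesothelial markers. Of 8 T cell markers, Cd3e and Cd3g had 0 counts in all 6 libraries and Cd3d and Cd8a at most 1 and 3, while Trac (32 to 62 counts), Lck (4 to 14), Cd2 (7 to 11) and Cd4 (2 to 6) were detected in every library. In bulk RNA, fewer cells of a type and less RNA per cell cannot be told apart.

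Windows at RefSeq starts of 3 feedback genes are shown for 3 different reasons: Nkd2 was the only one of the 10 genes called in any comparison below, Nkd1 is its closest relative, and Axin2 is the usual reference gene of the pathway. Each window runs from 250 bases before to 50 bases after a transcription start in RefSeq (GRCm38.p6), 5′ to 3′ on the gene's strand, with CpG dinucleotides in capitals. The Nkd2 window is chr13:73847582-73847881 on the minus strand, that of Nkd1 is chr8:88527383-88527682 on the plus strand and that of Axin2 is chr11:108920099-108920398 on the plus strand.
Nkd2: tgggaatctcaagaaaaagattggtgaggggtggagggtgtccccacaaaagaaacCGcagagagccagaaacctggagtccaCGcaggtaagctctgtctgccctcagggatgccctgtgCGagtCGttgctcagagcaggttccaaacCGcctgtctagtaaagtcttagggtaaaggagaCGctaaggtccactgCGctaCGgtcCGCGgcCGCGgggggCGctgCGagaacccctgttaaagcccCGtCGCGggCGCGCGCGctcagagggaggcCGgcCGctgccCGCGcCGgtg
Nkd1: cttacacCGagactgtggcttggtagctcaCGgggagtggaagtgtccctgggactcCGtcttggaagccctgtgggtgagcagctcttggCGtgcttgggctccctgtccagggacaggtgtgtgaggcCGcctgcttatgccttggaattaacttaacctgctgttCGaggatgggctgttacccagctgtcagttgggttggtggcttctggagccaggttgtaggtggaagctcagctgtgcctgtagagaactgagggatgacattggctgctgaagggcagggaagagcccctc
Axin2: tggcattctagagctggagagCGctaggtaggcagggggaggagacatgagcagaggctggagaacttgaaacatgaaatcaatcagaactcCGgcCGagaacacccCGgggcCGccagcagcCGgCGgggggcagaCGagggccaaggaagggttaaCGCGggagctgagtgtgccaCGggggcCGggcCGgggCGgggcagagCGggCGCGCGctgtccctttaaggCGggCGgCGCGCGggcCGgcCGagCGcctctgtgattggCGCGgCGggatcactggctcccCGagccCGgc
The Nkd2 window held 26 CpG dinucleotides, the Axin2 window 31 and the Nkd1 window 6, against a median of 7 over all windows of this length. The Nkd2 and Axin2 windows lie at the start of the gene in the GENCODE annotation, whereas the Nkd1 window lies at a RefSeq start inside the GENCODE gene span, so its CpG count is not that of the same kind of position. RefSeq windows were matched for 9 of the 10 genes, Znrf3 being the one without, and gave 16 windows. The extended TCF/LEF core CTTTGAT, searched on both strands (ATCAAAG), was in none of the 16; it occurred in 3.73% of all 32851 windows. The shorter core CTTTG, whose matches include every match of the extended one, was searched on both strands (CAAAG) and was found for 3 of the 9 genes, Tcf7l1, Tcf7l2 and Lef1, against 57.4% of all genes with a window. Such a match is a description of letters, not a binding site, and its absence says only that these letters are not in these windows. The first Lef1 window, chr3:131110047-131110346 on the plus strand, is shown as the most upstream of the 4 Lef1 windows; it held 2 matches, in capitals, and the fourth window held 3:
Lef1: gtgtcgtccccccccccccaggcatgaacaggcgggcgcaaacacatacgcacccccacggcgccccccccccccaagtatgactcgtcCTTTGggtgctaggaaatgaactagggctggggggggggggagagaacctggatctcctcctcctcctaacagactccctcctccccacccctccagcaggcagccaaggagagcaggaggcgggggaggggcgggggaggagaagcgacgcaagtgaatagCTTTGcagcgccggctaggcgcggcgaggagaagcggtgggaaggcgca
These matches began 161 bases before the start of transcription and at the base right after the start base. This RefSeq start lies upstream of the start of Lef1 in the GENCODE annotation.

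The 10 genes spanned more than 3 orders of magnitude in level. On a per-length scale (TPM, computed here by dividing the expected counts by length and scaling each library to the same total, with the mean length of each gene's annotated transcripts), the mean over the 6 libraries was 783 ± 6.79 TPM for Ctnnb1 (SD, n = 6). Tcf7l1 followed at 38.0 ± 2.39 TPM and Tcf7l2 at 16.0 ± 0.680 TPM. The feedback genes Nkd2, Nkd1 and Znrf3 stood at 9.28 ± 1.246, 5.42 ± 0.516 and 5.27 ± 0.244 TPM. Tcf7 was at 2.88 ± 0.406 TPM, Axin2 at 1.12 ± 0.208 TPM, Rnf43 at 0.605 ± 0.154 TPM and Lef1 at 0.352 ± 0.115 TPM. In this order, the ranges over the libraries overlapped between Nkd1 and Znrf3, between Axin2 and Rnf43 and between Rnf43 and Lef1, and did not overlap between the other neighbours. The order was the same when the longest transcript of each gene was used as its length, although the level of Ctnnb1 was then 497 TPM.

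**Figure D1:**
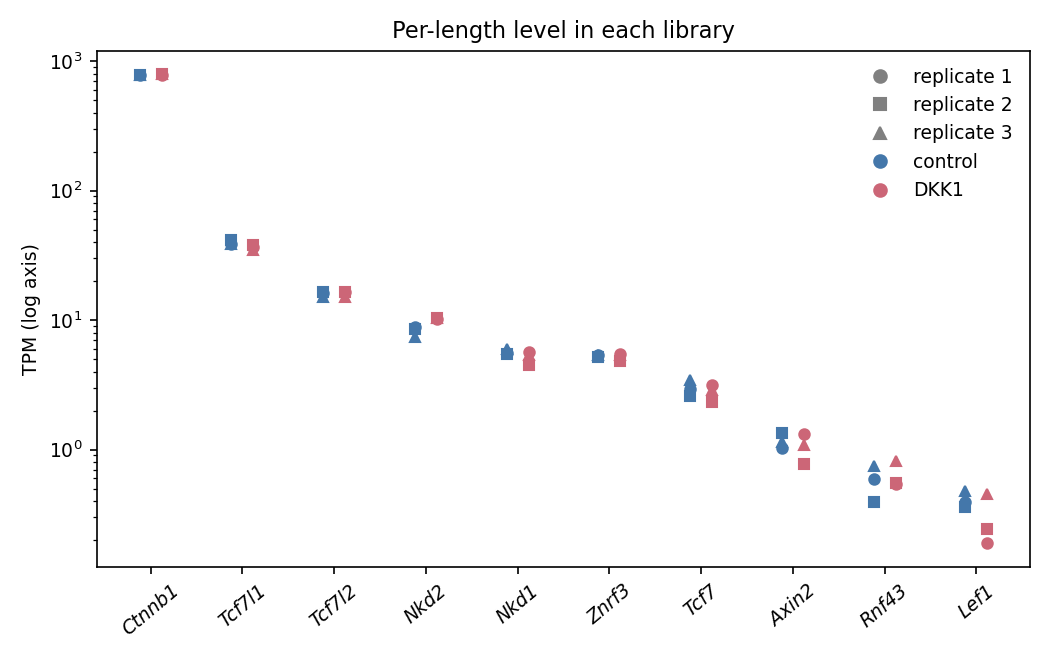
Per-length level (TPM, log axis) of each gene in the 3 control (blue) and 3 DKK1 (red) libraries, with the replicate number given by the marker. Ctnnb1 lay between 774 and 792 TPM in every library, and Lef1, at the other end, between 0.189 and 0.477 TPM.

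Whether these transcripts answered to DKK1 was tested in a fit across all 14635 genes. None of the 10 genes passed an adjusted p of 0.05 (edgeR quasi-likelihood test, Benjamini-Hochberg adjustment over all tested genes), against 0.895% of all tested genes (0.697% higher and 0.198% lower); 1 of the 10 had an unadjusted p under 0.05, against 10.6% of all genes. DESeq2, which called 2.04% of the genes to which it gave an adjusted p, also called 0 of the 10. So did limma-voom, with 130 calls among the 14635 genes. When the replicate number was added to the model as a block, 1 of the 10 was called, Nkd2, which was higher, against 9.42% of all tested genes in either direction and 4.96% called higher; 2 of the 10 (Nkd2 and Tcf7l1) then had an unadjusted p under 0.05, against 20.7%. DESeq2 with the block called 0 of the 10, against 3.94% of genes. The block compares libraries with the same replicate number, whose deviations from their group means correlated across genes at 0.23 to 0.405. The median log2 fold change of the 10 genes was -0.07 (4 higher, 6 lower), and that of all tested genes was -0.0009. The groups did not overlap in 2 of the 10 genes, against 16.5% of all tested genes: Nkd2 was higher (9.4% of all) and Tcf7l1 lower (7.14%) after DKK1.

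**Figure D2:**
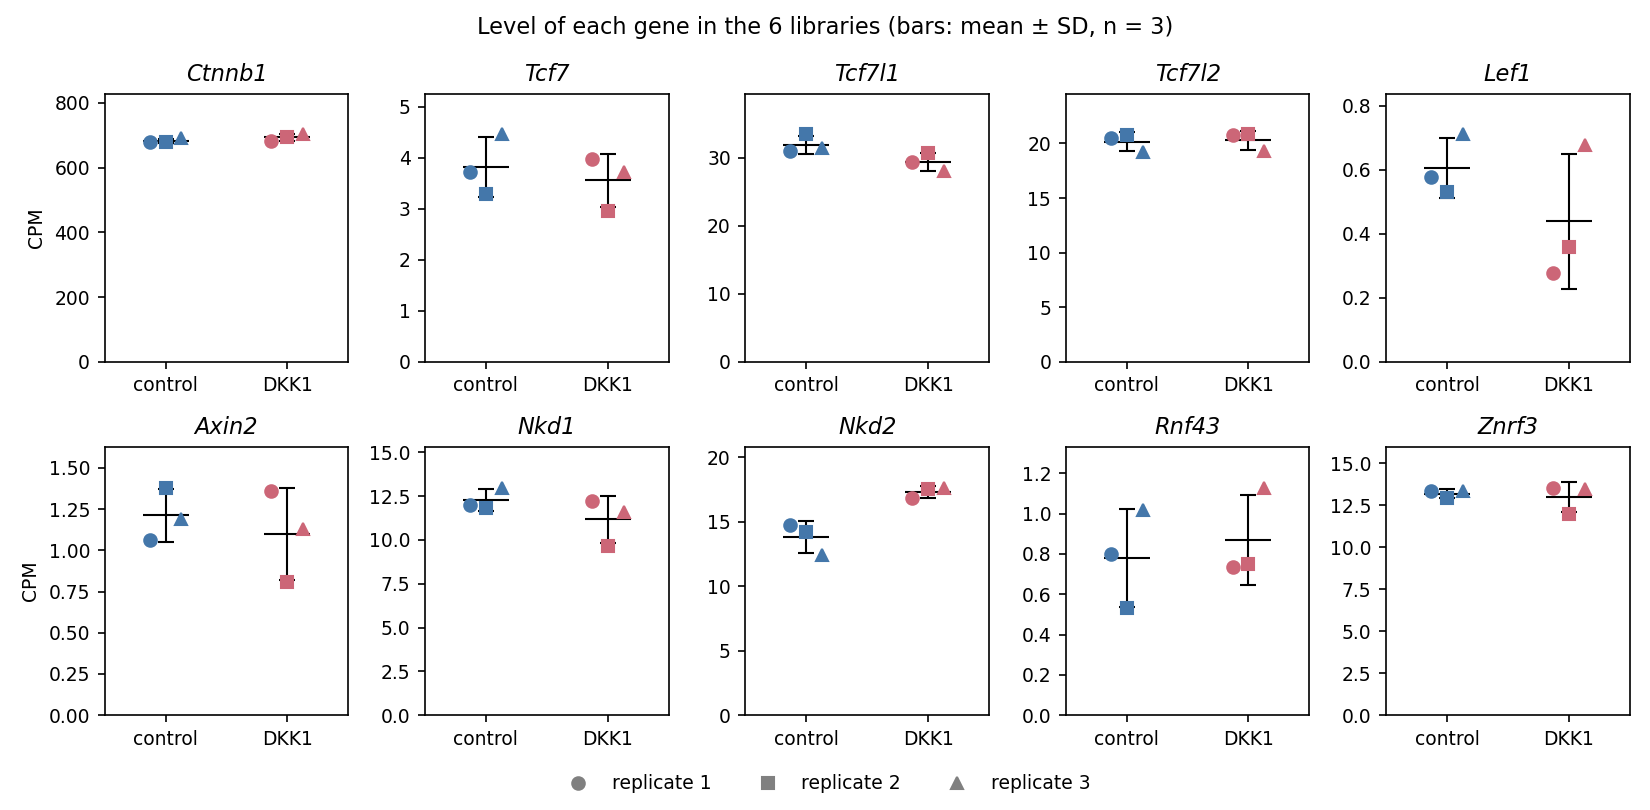
Level in CPM of each gene in every library, with the mean ± SD of each group (n = 3) as bars and the replicate number as marker shape; each panel has its own axis from 0. The 3 DKK1 libraries lay above the 3 control libraries for Nkd2 and below them for Tcf7l1, and the groups overlapped for the other 8 genes.

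Ctnnb1 (ENSMUSG00000006932, chr9:120929216-120960507, plus strand, GRCm38) encodes beta-catenin, which serves both as the nuclear partner of TCF/LEF factors and as a link between cadherins and the actin cytoskeleton. Its level was 678, 681 and 690 CPM in control replicates 1, 2 and 3, and 683, 695 and 703 CPM in the DKK1 replicates. The values overlapped between groups and spanned a narrow range. The fold change was 1.01, with a 95% interval of 0.968 to 1.06 that leaves out a change of 10% in either direction (edgeR adjusted p = 0.899). With the block the interval narrowed to 0.985 to 1.04 (edgeR adjusted p = 0.66). In each of the 6 libraries its expected count was fractional, as RSEM gives where reads are shared between loci, and Ulk4 and an antisense RNA overlap it on the other strand. Destruction of beta-catenin is regulated at the protein, which these data do not measure.

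Of the 4 DNA-binding partners of beta-catenin, Tcf7l1 is known mainly as a repressor, Tcf7l2 as a context-dependent regulator, and Tcf7 and Lef1 mainly as activators that are themselves Wnt targets in several tissues. Tcf7l1 (ENSMUSG00000055799, chr6:72626378-72789254, minus strand) measured 30.9, 33.4 and 31.4 CPM in the control libraries and 29.3, 30.6 and 28.0 CPM in the DKK1 libraries. All 3 DKK1 libraries were below the lowest control library, by a narrow margin. It was called in neither fit: the log2 fold change of -0.13 had an SE of 0.056 and an edgeR adjusted p of 0.484, and with the block an SE of 0.044 and an edgeR adjusted p of 0.101. A pair of antisense RNAs overlaps Tcf7l1.

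Tcf7l2 (ENSMUSG00000024985, chr19:55741820-55933654, plus strand) had the smallest fold change of the 4. It stood at 20.5, 20.8 and 19.2 CPM in control and at 20.8, 20.8 and 19.3 CPM in DKK1 libraries, so that same-numbered libraries were nearly equal. Its fold change was 1.00, with a 95% interval of 0.908 to 1.11 (edgeR adjusted p = 0.993).

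Tcf7 (ENSMUSG00000000782, chr11:52252371-52283014, minus strand) lay at 3.72, 3.29 and 4.46 CPM in control and 3.98, 2.97 and 3.73 CPM in DKK1 libraries. The groups overlapped, and the interval of the fold change was 0.704 to 1.22 (edgeR adjusted p = 0.894). Lef1 (ENSMUSG00000027985, chr3:131110471-131224356, plus strand) was the lowest of the 10 genes per length, with 13 to 16.1 expected counts in control and 7.99 to 15.6 in DKK1 libraries. Its level was 0.576, 0.531 and 0.710 CPM in control and 0.279, 0.360 and 0.678 CPM after DKK1. Replicate 3 was the highest library in both groups, as it was for the marker sums of other cell types given above; the part of those cells in the Lef1 level was not tested. The log2 fold change of Lef1 was -0.46 (SE 0.38, edgeR adjusted p = 0.751), and its 95% interval, 0.395- to 1.33-fold, holds both a fall of more than 2-fold and a rise, so neither was excluded. With 1 library left out, the log2 fold change of Lef1 ran from -0.22 (without DKK1 replicate 1) to -0.86 (without DKK1 replicate 3). Tcf7 and Lef1 are also well known T cell genes. The 8 T cell markers summed to 2.04 to 3.36 CPM in control and 1.93 to 2.65 CPM in DKK1 libraries, mostly from Trac, and Cd3e and Cd3g were at 0 counts; their part in the Tcf7 and Lef1 levels was not tested.

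The make-up of the TCF/LEF pool was compared as shares of the summed TPM of the 4 genes. Tcf7l1 made up most of it, with 66.3%, 68.2% and 67.1% in the control libraries and 64.9%, 66.7% and 65.1% in the DKK1 libraries. The groups overlapped, although the share was lower in each same-numbered pair, with a difference of -1.63 percentage points (two-sided exact permutation test, p = 0.2). The share of Tcf7l2 was 28.0%, 27.0% and 26.1% in control and 29.3%, 28.9% and 28.6% after DKK1. Here all DKK1 libraries were above all control libraries, by 1.84 percentage points on average (two-sided exact permutation p = 0.1, as low as 3 against 3 can go; 0.167 after adjustment over the 5 composition values tested). Tcf7 supplied 4.06% to 5.99% and Lef1 0.335% to 0.855% of the pool. With the longest transcript as length, the mean shares over all libraries were 58.7% for Tcf7l1, 31.8% for Tcf7l2, 8.72% for Tcf7 and 0.834% for Lef1. The log2 ratio of the Ctnnb1 level to the summed TCF/LEF level was 3.72 ± 0.0454 in control and 3.83 ± 0.0643 after DKK1 (SD, n = 3 each), without overlap (two-sided exact permutation p = 0.1; adjusted 0.167). The difference of 0.11 became 0.072 without DKK1 replicate 3. The Tcf7l2 share and this ratio are both taken over the same sum, which is mostly Tcf7l1. Tcf7l1 had a fold change of 0.916 (not called), against 1.00 for Tcf7l2 and 1.01 for Ctnnb1. The separations are therefore not distinct results.

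**Figure D3:**
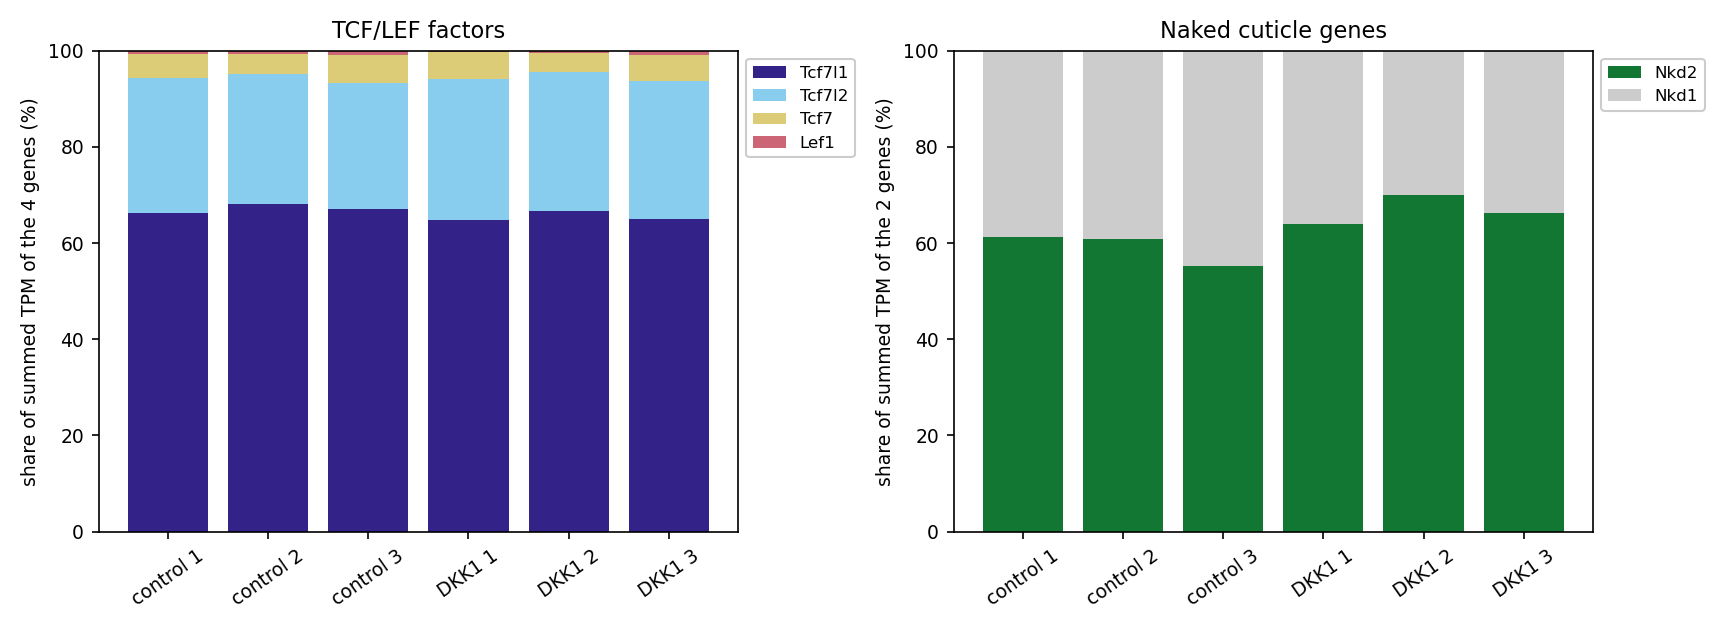
Left, share of each TCF/LEF gene in the summed TPM of the 4 genes, by library; right, share of Nkd2 and Nkd1 in their sum. Tcf7l1 held 64.9% to 68.2% of the TCF/LEF sum, and the Nkd2 share was 55.2% to 61.3% in control and 64.0% to 70.1% in DKK1 libraries.

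Axin2 (ENSMUSG00000000142, chr11:108920349-108950783, plus strand), the scaffold of the destruction complex whose transcription follows beta-catenin in many cell types, was low in both groups. It was measured at 1.06, 1.38 and 1.19 CPM in control and at 1.36, 0.806 and 1.13 CPM in DKK1 libraries, from 24 to 39 counts. One DKK1 library, replicate 2, was the lowest of the 6, while DKK1 replicate 1 was nearly as high as the highest control. Same-numbered pairs differed in direction, with log2 ratios of 0.36, -0.77 and -0.08. The 95% interval of the fold change ran from 0.586 to 1.36 (edgeR adjusted p = 0.899); its lower bound, 0.586, lies above a 2-fold fall. Without DKK1 replicate 2 the log2 fold change went from -0.16 to 0.029 (edgeR adjusted p = 0.99). An antisense RNA overlaps Axin2, and the strandedness of the counting is not given in the sources used here.

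Of the naked cuticle pair, Nkd2 had the larger difference. Nkd2 (ENSMUSG00000021567, chr13:73818534-73847631, minus strand), whose product binds Dishevelled and dampens its signal, measured 14.8, 14.2 and 12.4 CPM in control replicates 1, 2 and 3 and 16.8, 17.5 and 17.7 CPM in the DKK1 replicates. Every DKK1 library was above every control library, and the gap was widest in replicate 3, with pair log2 ratios of 0.19, 0.30 and 0.51. The fold change was 1.251 (log2 fold change 0.32, SE 0.08), with a 95% interval of 1.10 to 1.42. In the fit without the block this was not called (edgeR unadjusted p = 0.00333, adjusted p = 0.143), and with the block it was (SE 0.073, edgeR adjusted p = 0.0126). The blocked call was kept without replicate number 1 (edgeR adjusted p = 0.000426) and lost without number 2 (0.0994) or number 3 (0.106). Such a fit has few libraries left, so its p-values lean heavily on the spread estimated across all genes. DESeq2 did not call Nkd2 without the block (adjusted p = 0.155) or with it (0.274). A pseudogene lies on the opposite strand within Nkd2, while all 6 expected counts of Nkd2 were whole.

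Nkd1 (ENSMUSG00000031661, chr8:88521354-88594884, plus strand) was not called in either fit. Its values were 12.01, 11.82 and 12.98 CPM in control and 12.2, 9.68 and 11.6 CPM in DKK1 libraries, with overlap between the groups. Its log2 fold change, -0.14 (SE 0.1), was not called (edgeR adjusted p = 0.696, and 0.34 with the block), and it was -0.049 without DKK1 replicate 2. As a share of the summed TPM of both genes, Nkd2 made up 61.3%, 60.8% and 55.2% in control and 64.0%, 70.1% and 66.2% after DKK1. The groups did not overlap, with a difference of 7.62 percentage points (two-sided exact permutation p = 0.1; adjusted 0.167). Markers of other cells moved in the same comparison: with the block, 4 of the 8 leukocyte markers were called higher (Marco, from 6.38 to 20.1 CPM, Itgam, S100a8 and Adgre1) and 1 lower (Csf1r), against 4.96% and 4.46% of all tested genes. All 5 smooth muscle markers were called lower with the block, Myh11 also without it (edgeR adjusted p = 0.00387), and of the 8 fibroblast markers 2 were called higher and 4 lower with the block. The summed leukocyte level was 399.8, 462.9 and 807 CPM in control replicates 1, 2 and 3. In the DKK1 replicates it was 457, 496.4 and 868 CPM, overlapping between groups and higher in each same-numbered pair. Most of this sum was Lyz2 (340 to 696 CPM in control, 370 to 722 CPM in DKK1 libraries). Lyz2, Ptprc and Cd68 were not called with the block (log2 fold changes 0.063, -0.15 and -0.17). The smooth muscle sum was 9095.6, 8970.6 and 10030.7 CPM in control replicates 1, 2 and 3. It was 7676.3, 7783.6 and 8966.4 CPM in the DKK1 replicates, without overlap. The part of cells with these markers in the Nkd2 difference was not tested.

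The ubiquitin ligase genes showed no call. Znrf3 (ENSMUSG00000041961, chr11:5276324-5444847, minus strand) was at 13.3, 12.9 and 13.3 CPM in control and 13.5, 11.95 and 13.4 CPM in DKK1 libraries. All but DKK1 replicate 2 lay within a narrow band, and the 95% interval of the fold change was 0.869 to 1.10 (edgeR adjusted p = 0.946). Rnf43 (ENSMUSG00000034177, chr11:87662722-87735539, plus strand) was low, at 0.798, 0.531 and 1.02 CPM in control and 0.733, 0.749 and 1.13 CPM in DKK1 libraries, from 15 to 26 counts. Replicate 3 was the highest library in both groups here too. Its interval, 0.662- to 1.85-fold, was wide (edgeR adjusted p = 0.936). Znrf3 made up 86.7% to 93.0% of the summed TPM of the pair across the 6 libraries, and this share did not separate the groups (two-sided exact permutation p = 0.5; adjusted 0.5).

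**Figure D4:**
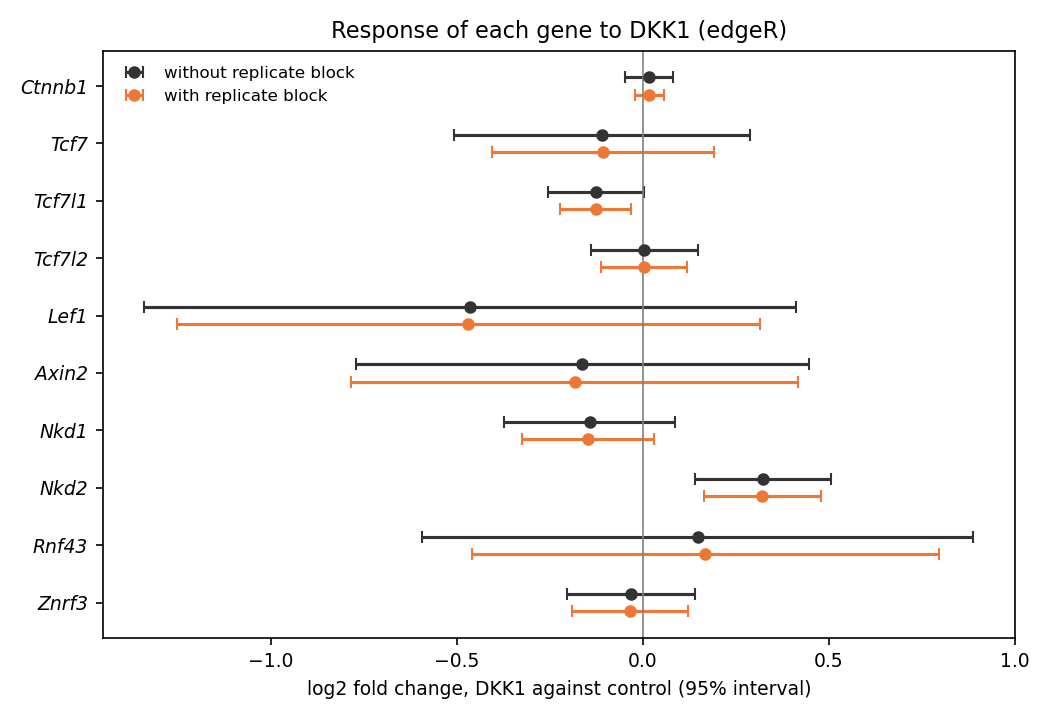
Log2 fold change of each gene, DKK1 against control, with its 95% interval in the edgeR fit without (black) and with (orange) the replicate block. Nkd2 is the only gene whose interval lay above 0 in both fits, at 0.14 to 0.51 and 0.16 to 0.48, and Lef1, Rnf43 and Axin2 had the widest intervals.

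The other genes of the pathway were examined in 5 lists of 94 different genes, of which 87 were tested. Without the block, edgeR called 0 of the 87 (0.895% of all genes), limma-voom 0 (130 calls among all genes) and DESeq2 1 (2.04% of all genes). In the edgeR fit, 11 had an unadjusted p under 0.05 (10.6% of all genes). With the block, edgeR called 12 of the 87, 4 higher and 8 lower, against 9.42% of all tested genes (4.96% higher, 4.46% lower). Of these 12 calls, 8 were kept without replicate number 1, 2 without number 2 and 6 without number 3, and only Dact1 and Ccn4 were kept in each of these 3 fits. The limit given for such fits under Nkd2, few libraries, holds here too.

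In the destruction complex and cytoplasmic relay, 24 of 24 genes were tested, with a median log2 fold change of -0.0008. With the block 1 was called higher and 1 lower, against 4.96% and 4.46% of all tested genes. Dvl3, a Dishevelled gene, fell from 54.6 ± 1.93 to 47.7 ± 2.10 CPM (SD, n = 3 each; log2 fold change -0.20, edgeR adjusted p = 0.00238 with the block and 0.136 without). Dact1, which encodes a Dishevelled-binding antagonist, rose from 12.8 ± 1.38 to 16.8 ± 1.79 CPM (log2 fold change 0.38, edgeR adjusted p = 0.00179 with the block and 0.219 without). The most abundant uncalled gene was Csnk1a1, the casein kinase that primes beta-catenin for destruction, at 365 ± 4.96 and 381 ± 9.24 CPM (edgeR adjusted p = 0.0995 with the block).

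Of the receptor list, 11 of 12 genes were tested and 0 were called by edgeR without or with the block, where 1 and 4 had an unadjusted p under 0.05 (10.6% and 20.7% of all tested genes); 9 had lower and 2 higher values after DKK1 (median log2 fold change -0.07). Ckap4, which encodes a DKK1 receptor outside the LRP family, was the most abundant at 529.7 ± 20.4 and 535 ± 12.2 CPM.

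Among the nuclear cofactors, 22 of 22 were tested (median log2 fold change -0.006). The block gave 1 higher and 1 lower call, against 4.96% and 4.46% of all tested genes. With the block, Ctnnbip1, whose product keeps beta-catenin from TCF factors, fell from 19.8 ± 3.50 to 16.9 ± 2.27 CPM (log2 fold change -0.22, edgeR adjusted p = 0.0321 with the block and 0.634 without). Tbl1xr1, a subunit of co-repressor complexes that also binds beta-catenin, rose from 26.3 ± 1.65 to 30.1 ± 1.96 CPM (log2 fold change 0.19, edgeR adjusted p = 0.0387 with the block and 0.358 without). Tle5, a short Groucho-family gene, was the most abundant, at 258 ± 16.6 and 250.3 ± 10.5 CPM, and was not called.

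The adherens junction list, which holds cadherin and catenin genes and not only direct partners of beta-catenin, held 4 of the 8 lower calls: 4 of its 11 tested genes were called lower with the block (4.46% of all tested genes) and 0 higher, with a list median of -0.04. None of these 4 calls was kept in the block fit without replicate number 2 (edgeR adjusted p = 0.0524 to 0.1) or by DESeq2 with the block (adjusted p = 0.0571 to 0.375). Ctnna2, an alpha-catenin gene, fell without overlap between groups, from 3.79 ± 0.547 to 1.99 ± 0.205 CPM (log2 fold change -0.94, edgeR adjusted p = 0.00163 with the block and 0.0604 without). It was the 1 pathway gene that DESeq2 called without the block (adjusted p = 0.0132), and edgeR called it without a filter on low counts (adjusted p = 0.0139). Ctnnd2, a delta-catenin gene, fell from 10.9 ± 0.776 to 8.44 ± 0.0874 CPM (log2 fold change -0.37, edgeR adjusted p = 0.0133 with the block and 0.109 without). Cdh3, which encodes P-cadherin, fell from 4.31 ± 1.10 to 2.86 ± 1.04 CPM and Jup, which encodes gamma-catenin, from 87.96 ± 10.25 to 80.1 ± 8.22 CPM, with edgeR adjusted p-values of 0.0182 and 0.00956 with the block and 0.488 and 0.681 without. The Cdh3 call was lost in each of the 3 block fits that leave out a replicate number (edgeR adjusted p = 0.0543 to 0.1). The abundant alpha-catenin gene of fibroblasts, Ctnna1, stood at 591 ± 13.2 and 577 ± 14.4 CPM and was not called (edgeR adjusted p = 0.231 with the block).

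Of 25 genes listed as other Wnt target genes, 20 were tested and their median log2 fold change was 0.02. With the block 2 were called higher and 2 lower, against 4.96% and 4.46% of all tested genes. Ccn4, which encodes a matricellular protein, fell from 447 ± 65.7 to 392 ± 56.8 CPM (log2 fold change -0.19), with an edgeR adjusted p of 2.42e-05 with the block and 0.677 without. Its values were 500.4, 466.5 and 373.5 CPM in control replicates 1, 2 and 3 and 441.4, 405.0 and 330.0 CPM in the DKK1 replicates, lower in each same-numbered pair. DESeq2 with the block also called it (adjusted p = 1.436e-08), alone among the 12. Dkk2, a relative of DKK1, fell from 55.1 ± 3.78 to 49.7 ± 2.48 CPM (edgeR adjusted p = 0.023 with the block and 0.404 without). Trib2, a pseudokinase gene, rose from 26.4 ± 2.37 to 30.2 ± 2.01 CPM and Zbtb33, which encodes the transcription factor Kaiso, from 31.3 ± 1.28 to 35.5 ± 0.564 CPM, with edgeR adjusted p-values of 0.0216 and 0.0338 with the block and 0.44 and 0.205 without. The Dkk2 and Zbtb33 calls were lost in each block fit that leaves out a replicate number (edgeR adjusted p = 0.0602 to 0.105 and 0.0716 to 0.153). With the block and GC and length trends taken out, Zbtb33 was not called either (edgeR adjusted p = 0.0522). Cd44, the cell surface receptor of hyaluronan and the most abundant uncalled gene of the list, was at 331 ± 8.82 and 344 ± 5.24 CPM.

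**Figure D5:**
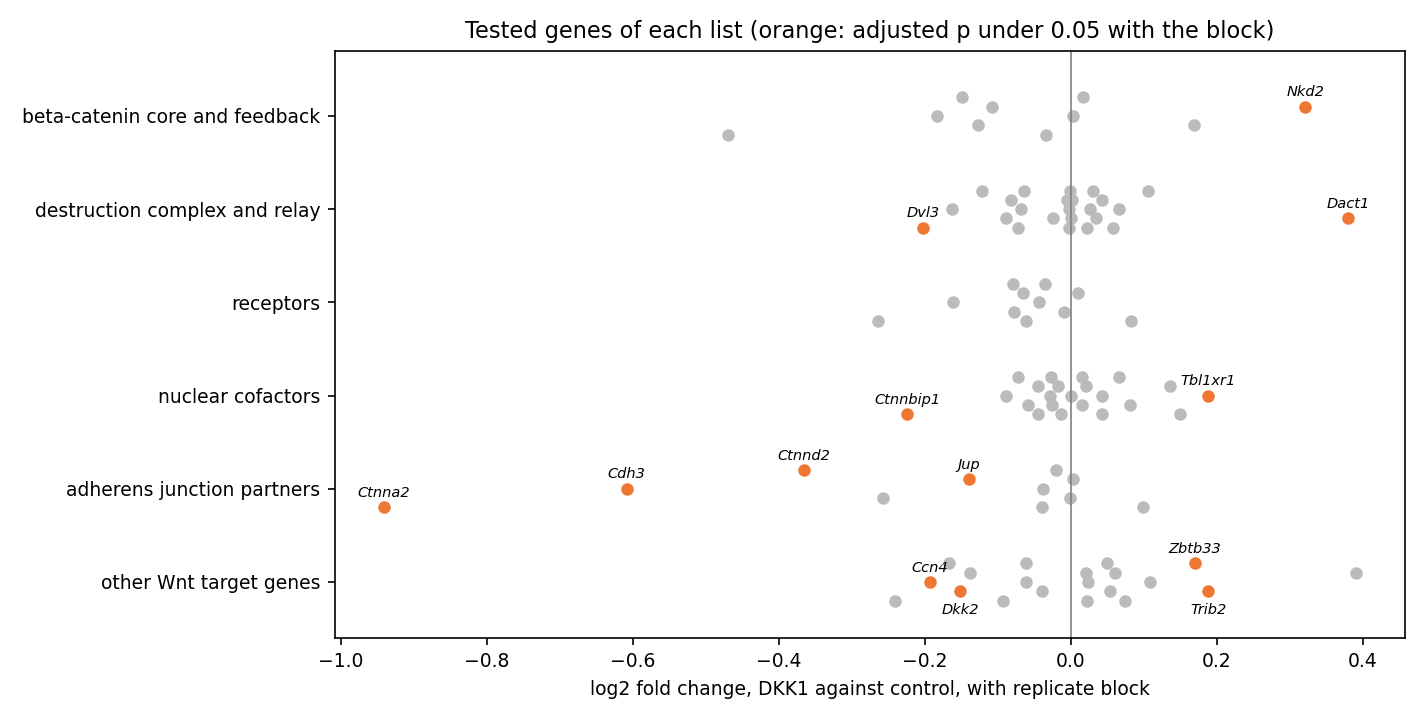
Log2 fold change with the replicate block of each tested gene in the 10-gene set and the 5 pathway lists, 1 point per gene (vertical spread within a list has no meaning); orange points are called at an adjusted p under 0.05 and named. Most points lie within 0.2 of 0, and the called genes run from -0.94 (Ctnna2) to 0.38 (Dact1).

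The genes most like Ctnnb1 over the 6 libraries, by the root mean squared difference of centred log2 CPM, were Eif1 (0.00485), Eml3 (0.00793) and Tomm34 (0.00851), against a median of 0.0669 over the 9223 genes compared. For Tcf7l2 they were Kdm5c, Kirrel and Zfp518b, at 0.0124 to 0.0134 against a median of 0.0821. Only the more abundant tested genes were compared. The measure is not scaled to the variation of each gene, so a gene with an even level lies nearest other even genes. A small difference is thus no sign of shared regulation.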

How the data were processed

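RNA sequencing libraries of lung fibroblasts (3 control, 3 DKK1) were analysed from 1 deposited table of RSEM expected counts per gene, the estimated counts that the authors deposited unscaled; 9.62% to 10.6% of values were not whole. STAR, RSEM and edgeR 4.2.1 and the build GRCm38 (mm10) are named, per the submitters' processing notes, without their roles; annotation release, strandedness and filters are not given in the sources used here. Symbols were found for 98.8% of gene identifiers. Positions and transcript lengths came from GENCODE M21 (GRCm38), which holds 98.7% of the transcript identifiers.

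Counts were rounded and tested with edgeR 4.0.16 in R 4.3.3: filterByExpr (minimum count 10), TMM scaling, quasi-likelihood test of group, two-sided, Benjamini-Hochberg adjustment over all genes, calls at an adjusted p under 0.05. Standard errors are the log2 fold change over the square root of F, and 95% intervals are per gene, not adjusted. CPM used whole library totals. The floor of 3 counts was 0.0864 to 0.133 CPM, for counting error only; amplified reads are not independent molecules. Fits were tested on simulated data with the same spread for every gene and no replicate effect. This could not test the block where same-numbered libraries deviate together. Alternatives were DESeq2 1.42.0, limma-voom (limma 3.58.1), other scalings, filters and lengths, the replicate block, left-out libraries and, chosen after seeing the data, removal of GC and length trends and block fits without each number.

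The replicate numbers come from the sample titles, which do not say what they stand for; same-numbered libraries deviated together in each of the 3 pairs (correlations of 0.274, 0.23 and 0.405), so blocked values are given where they change a call. The genes and lists were chosen with earlier results of these data known. All 10 genes were named; from each list, the genes called with or without the block and the most abundant uncalled gene.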

Additional observations from a re-analysis of the deposited data

How the results depend on the processing

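Without the block, edgeR with its low-count filter called 0 of the 10 genes and 0 of the 87 pathway genes, also with each library left out in turn. For all genes, 131 calls became 329 without a low-count filter, 289 with DESeq2, 558 with DESeq2 and the replicate block, 1379 with the replicate block in edgeR, 1358 with that block after trends with GC and length were taken out, and 36 to 139 with 1 library left out. Block fits without replicate number 1, 2 or 3 called 1312, 612 and 1059. Of the 10 genes, 1 (Nkd2) was called with the block (log2 fold change 0.32), with the block and the trend removed (0.33) and with the block without number 1 (0.39), and 0 in the other block fits; the block changed the call of no other of the 10 genes. A minimum of 10 counts in every library removed Lef1 and so gave it no value. Pathway calls were 12 with the block, 12 with the trend removed as well, 11, 2 and 8 without numbers 1, 2 and 3, and 1 each with DESeq2, with DESeq2 and the block, and without a filter. With all 6 libraries in and no block, the sign of each of the 10 log2 fold changes was the same in every alternative run. In block fits without a number it changed for Tcf7l2 (-0.0012, without number 1), Axin2 (0.14) and Znrf3 (0.013, both without number 2). With 1 library left out, log2 fold changes ranged from -0.21 to 0.008 for Tcf7, -0.0359 to 0.0402 for Tcf7l2, -0.86 to -0.22 for Lef1, -0.22 to -0.049 for Nkd1, -0.35 to 0.029 for Axin2, -0.0802 to 0.373 for Rnf43, -0.065 to 0.024 for Znrf3 and 0.25 to 0.37 for Nkd2, where the edgeR adjusted p was 0.216 to 0.372. The Znrf3 share difference ranged from -2.43 to 0.18 percentage points, and the other 4 composition values kept their sign in all 8 alternatives run for each. The cause of these changes was not tested. Lef1, Rnf43 and Axin2 rest on 39 counts or fewer in each library; the part of depth in their wide intervals was not tested.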
